A study of Homo sapiens with 12 samples.

Results

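Genes of the cornified envelope, the cross-linked protein shell of squamous epithelial cells, were followed in HCC70, a line of human breast cancer cells of the basal-like, triple-negative kind. SPRR1A, SPRR1B, SPRR3, IVL and TGM1 were taken by their symbols, and are 5 of 26365 genes in the table. They were picked after the difference between cells with an shRNA against LAD1 and control cells was known, so that difference is given below as a description, with no test. LAD1 encodes ladinin-1, a protein of basement membranes and the actin cytoskeleton. The 6 groups of 2 libraries each were cells with shLAD1 and EGF for 0, 40 or 240 min, and cells with a scrambled shRNA and EGF for 0, 40 or 240 min. All cells carried an shRNA stably, all were held overnight in serum-free medium, and EGF (epidermal growth factor) was given at 50 ng/ml. Both 0 min groups were serum-deprived and received no EGF. One shRNA against LAD1 is named, so loss of LAD1 and any other effect of that shRNA cannot be told apart. There were no libraries kept without EGF for 40 or 240 min, so EGF and the time since the start cannot be told apart. The labels number the libraries 1 and 2 without saying that these came from separate cultures, so p-values measure the spread between these libraries, which may be technical.

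In stratified epithelia such as epidermis, keratinocytes that leave the basal layer make precursor proteins and cross-link them under the plasma membrane into an insoluble envelope. Involucrin, made from IVL, is an early scaffold, and the small proline-rich proteins, made from the SPRR genes, serve as cross-bridges. Transglutaminases such as TGM1 form the bonds between them. IVL and the SPRR genes lie in the epidermal differentiation complex on chromosome 1, and AP-1 factors (dimers of JUN and FOS family proteins) are known regulators of the IVL and SPRR1 promoters. Normal mammary epithelium does not cornify.

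The 250 bases before the start of 4 members, from RefSeq on GRCh38.p14, are shown because AP-1 genes of the same libraries are described further on. All 4 lie on the plus strand, at chr1:152983831-152984080 for SPRR1A, chr1:153030953-153031202 for SPRR1B, chr1:153001499-153001748 for SPRR3 and chr1:152908296-152908545 for IVL. Capitals mark each match to TGANTCA, the core of the AP-1 motif, searched on both strands.
SPRR1A: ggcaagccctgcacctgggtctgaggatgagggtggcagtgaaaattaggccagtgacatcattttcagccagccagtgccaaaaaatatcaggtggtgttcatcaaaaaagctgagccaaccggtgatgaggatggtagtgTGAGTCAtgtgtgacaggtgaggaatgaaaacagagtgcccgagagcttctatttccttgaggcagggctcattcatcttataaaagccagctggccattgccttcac
SPRR1B: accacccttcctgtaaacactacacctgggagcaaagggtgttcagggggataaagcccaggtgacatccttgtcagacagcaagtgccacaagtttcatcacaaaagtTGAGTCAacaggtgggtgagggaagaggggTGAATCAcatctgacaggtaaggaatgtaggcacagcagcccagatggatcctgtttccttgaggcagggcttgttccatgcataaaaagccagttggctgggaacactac
SPRR3: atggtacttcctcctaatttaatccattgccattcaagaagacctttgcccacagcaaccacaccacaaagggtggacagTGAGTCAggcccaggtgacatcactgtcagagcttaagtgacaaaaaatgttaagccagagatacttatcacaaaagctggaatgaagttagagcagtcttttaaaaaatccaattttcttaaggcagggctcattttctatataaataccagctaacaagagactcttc
IVL: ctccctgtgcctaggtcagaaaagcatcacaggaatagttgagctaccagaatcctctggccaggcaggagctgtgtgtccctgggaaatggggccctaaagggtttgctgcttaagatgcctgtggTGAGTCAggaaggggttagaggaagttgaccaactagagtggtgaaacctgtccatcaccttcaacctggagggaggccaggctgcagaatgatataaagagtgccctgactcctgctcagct

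Each of the 4 windows held a TGANTCA, and each of them held it in the form TGAGTCA. The match began 108 bases before the start in SPRR1A, 141 bases before it in SPRR1B, 170 bases before it in SPRR3 and 123 bases before it in IVL. SPRR1B had a second match, TGAATCA, 111 bases before its start. Of 27305 RefSeq promoter windows of this length, 6.60% held TGANTCA and 4.16% held TGAGTCA or its reverse complement. A match is a run of letters and not a measured binding site. The SPRR1A and SPRR1B windows also shared the 18 bases tttccttgaggcagggct, beginning 56 and 57 bases before their starts and found in these 2 of the 27305 windows. Its last 10 bases, aggcagggct, stand at 48 bases before the start in SPRR3 too, and 0.311% of the windows held them.

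The libraries held 12428618 to 16721013 reads. LAD1 had 1091 and 865 normalized counts (reads divided by a size factor of each library) in shLAD1 cells at 0 min, 1181 and 971 at 40 min and 2535 and 2297 at 240 min. In scramble cells it had 5925 and 6406 at 0 min, 5808 and 6522 at 40 min and 9102 and 10194 at 240 min. LAD1 was thus lower in every shLAD1 library than in any scramble library. Of 7 basal epithelial markers, KRT5 lay between 39623 and 78195 normalized counts in the 12 libraries and CDH3 between 6765 and 10567, while TP63 reached only 34.5. Of 5 luminal markers, ESR1 reached 28.98 and PGR 1.03. GATA3, FOXA1 and ERBB2 were well detected, GATA3 at 1198 to 1709 and ERBB2 at 1520 to 2566. The sum of 3 stromal markers was 509 to 897 in shLAD1 cells and 243 to 376 in scramble cells, nearly all of it COL1A1, with COL3A1 at 0 to 1.02 in shLAD1 cells and at 0 in scramble cells. The sum of 3 blood cell markers was 1083 to 1578 in shLAD1 cells and 741 to 1019 in scramble cells, nearly all of it CD68, with PTPRC at no more than 1.11. COL1A1 and CD68 were each higher in all shLAD1 libraries than in any scramble library, as SPRR1A, SPRR1B and SPRR3 were. Their part in the differences was not tested.

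SPRR1B, a cross-bridge precursor that rises in squamous differentiation and stress, had the largest difference between shRNAs among the 5 members on the log2(normalized count + 1) scale, though not by the ratio of means, which was larger for SPRR3. In shLAD1 cells it had 475 and 862 normalized counts at 0 min, 352 and 882 at 40 min and 613 and 859 at 240 min. In scramble cells it had 59.0 and 11.3 at 0 min, 72.2 and 27.6 at 40 min and 87.8 and 22.3 at 240 min. The lowest shLAD1 library, at 352, stood far above the highest scramble library, at 87.8. The mean over the 6 shLAD1 libraries was 14.4 times the mean over the 6 scramble libraries, and on the log2(normalized count + 1) scale the difference was 4.06 ± 0.53 (SE). This SE and those of the other members come from a fit that takes the 6 libraries of an shRNA as separate, although libraries with the same number deviate together. With 1 value per shRNA and number, 2 against 2, the SE was 1.03 for SPRR1B, 0.77 for SPRR1A, 0.72 for SPRR3, 0.13 for IVL and 0.38 for TGM1. Because whole cultures were measured, more cells expressing the gene and more RNA per expressing cell cannot be told apart, here or in the results that follow.

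SPRR1A, its close relative with the same role, showed the same arrangement and was measured from 1013 reads over all libraries. It had 89.3 and 187 normalized counts at 0 min, 85.9 and 214 at 40 min and 146 and 201 at 240 min in shLAD1 cells. In scramble cells it had 19.7 and 10.3 at 0 min, 23.0 and 10.0 at 40 min and 30.4 and 8.91 at 240 min. No shLAD1 library overlapped a scramble library, and the log2 difference was 3.15 ± 0.40 (SE). The coding sequences of SPRR1A and SPRR1B in GENCODE v29 were identical at 257 of 267 bases, or 96.3%, with a longest shared run of 74 bases. How the authors' counting treated reads that match both is not given in the sources used here, so the split between SPRR1A and SPRR1B is uncertain. Within each library, the normalized count of SPRR1B was 4.10 to 5.32 times that of SPRR1A in shLAD1 cells and 1.10 to 3.14 times in scramble cells, so the ratio ranges did not overlap. The scramble ratios rest on 8 to 29 SPRR1A reads per library, and the lowest is 11 reads over 10. The coding lengths of the pair are equal, but transcript lengths were not taken into account.

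SPRR3, a larger cross-bridge protein best known from the lining of the mouth and oesophagus, was scarce. It had 8.21 and 17.3 normalized counts at 0 min, 11.6 and 27.2 at 40 min and 16.4 and 41.0 at 240 min in shLAD1 cells. In scramble cells it was at 0 and 1.03 at 0 min, 0.793 and 1.67 at 40 min and 1.13 and 3.34 at 240 min. All shLAD1 libraries again stood above all scramble libraries. SPRR3 passed the low-count filter (2 or more libraries with 10 or more normalized counts) through 5 shLAD1 libraries and no scramble library, so it could be tested only because it was high in shLAD1 cells. Summed over libraries there were 120 reads in shLAD1 cells and 8 in scramble cells, a depth-adjusted ratio of 15.7. The log2 difference of 3.15 ± 0.41 (SE) at a pseudocount of 1 became 1.89 at a pseudocount of 5. At 0 min there were 25 reads in shLAD1 cells and 1 read in scramble cells.

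IVL, the involucrin gene, was measured from 18030 reads, the most of the 5 members. In shLAD1 cells it had 1264 and 1636 normalized counts at 0 min, 2064 and 2773 at 40 min and 2751 and 2529 at 240 min. The scramble libraries held 475 and 477 at 0 min, 857 and 921 at 40 min and 1049 and 1280 at 240 min. The shLAD1 pair stood above the scramble pair at each time, yet the lowest shLAD1 library, at 0 min, was just under the highest scramble library, at 240 min. The mean over the shLAD1 libraries was 2.57 times the mean over the scramble libraries, and the log2 difference was 1.40 ± 0.09 (SE). By time it was 1.59 at 0 min, 1.43 at 40 min and 1.19 at 240 min, each ± 0.16 (SE).

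TGM1, the membrane-anchored transglutaminase that cross-links involucrin and the small proline-rich proteins, was measured from few reads in either kind of cell. It had 29.8 and 20.4 normalized counts at 0 min, 31.9 and 20.96 at 40 min and 25.6 and 12.01 at 240 min in shLAD1 cells. Scramble cells held 17.6 and 14.4 at 0 min, 19.0 and 28.4 at 40 min and 12.4 and 18.9 at 240 min. The pairs stood a few normalized counts apart at 0 min and overlapped at 40 and 240 min. The 139 reads in shLAD1 cells and 117 in scramble cells gave a depth-adjusted ratio of 1.24, and the log2 difference was 0.31 ± 0.25 (SE). Thus 3 of the 5 members, SPRR1A, SPRR1B and SPRR3, stood in all 6 shLAD1 libraries above all 6 scramble libraries. The same held for 3.16% of the 13950 genes that passed the filter, while 3.99% stood below in all, and the members were chosen on this difference.

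**Figure D1:**
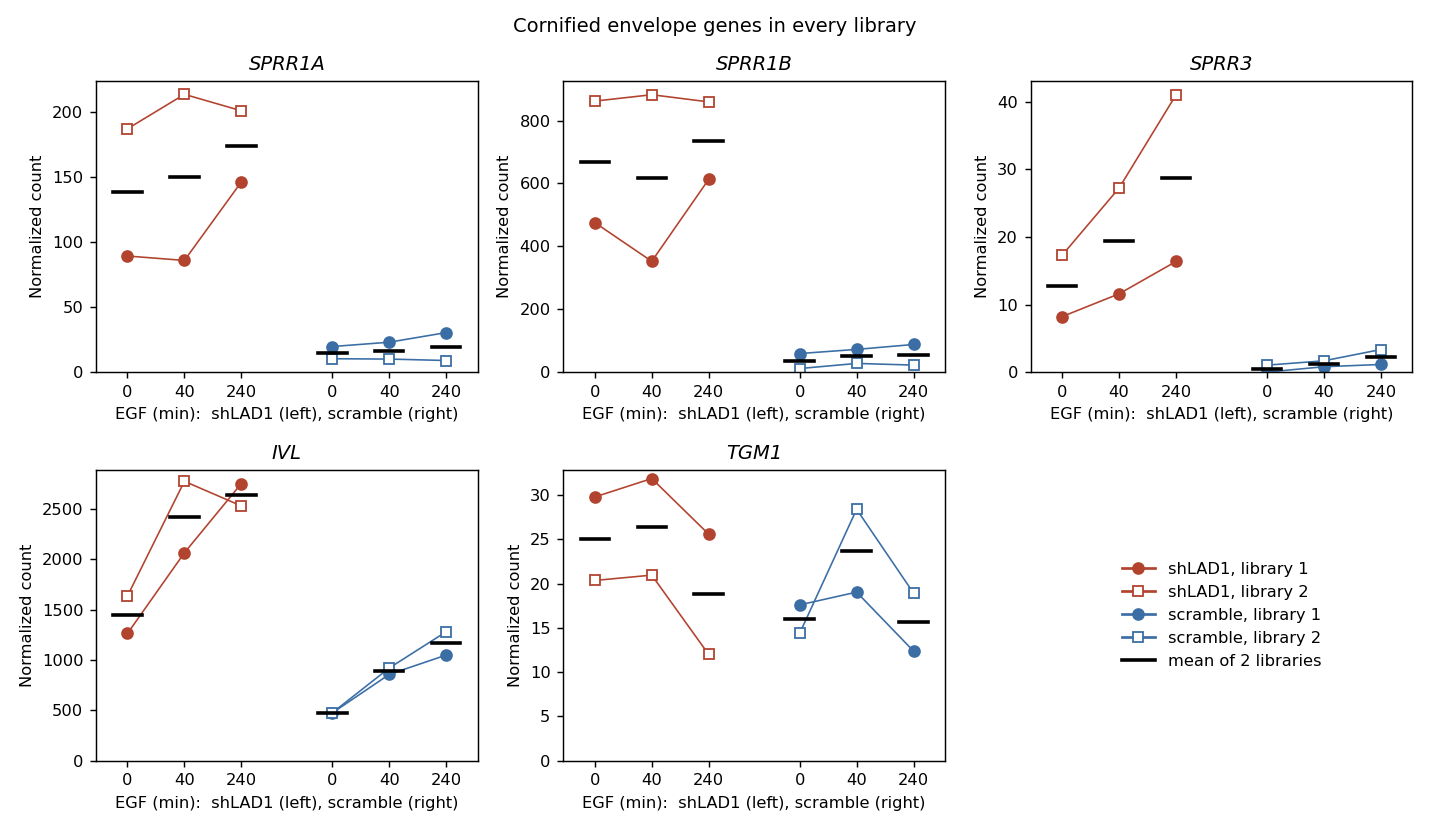
Normalized count (linear axis from 0) of each member in all 12 libraries, with shLAD1 cells on the left and scramble cells on the right of each panel and EGF time in minutes along the axis. Points are single libraries, lines join libraries with the same number, and black bars are means of 2 libraries. SPRR1B lies at 352 to 882 in shLAD1 cells and at 11.3 to 87.8 in scramble cells, whereas the TGM1 values of the 2 kinds of cell overlap at 40 and 240 min.

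The members did not vary alike between libraries of 1 kind of cell. Averaged over the 3 times, SPRR1B had 480 normalized counts in the shLAD1 libraries numbered 1 and 868 in those numbered 2, against 73.0 in the scramble libraries numbered 1 and 20.4 in those numbered 2. SPRR1A had 107 and 201 in shLAD1 cells, against 24.4 and 9.74 in scramble cells, in the same order. For both genes number 2 was the higher at every time in shLAD1 cells and the lower at every time in scramble cells. The ratio of shLAD1 to scramble for SPRR1B was therefore 8.06, 4.88 and 6.98 at 0, 40 and 240 min among the libraries numbered 1, and 76.2, 32.0 and 38.6 among those numbered 2. SPRR3 was higher in number 2 in both kinds of cell, with 12.1 and 28.5 in shLAD1 cells against 0.640 and 2.01 in scramble cells. IVL differed less between the numbers, with 2026 and 2313 in shLAD1 cells against 794 and 893 in scramble cells. TGM1 had 29.1 and 17.8 in shLAD1 cells against 16.3 and 20.6 in scramble cells. The size of the SPRR1 differences thus depended on the library number by several fold, while their direction did not.

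EGF, the ligand of the receptor EGFR, was examined next. The 40 and 240 min comparisons share their 0 min libraries and are not independent of each other. A gene is called here when limma's trend test over all 13950 genes gave a Benjamini-Hochberg adjusted p under 0.05, and changes are on the log2(normalized count + 1) scale. Of the 5 members, IVL alone was called. At 40 min it was called in scramble cells, as 1 of 5 members where 0.853% of all genes were called, and in shLAD1 cells 0 of 5 members and 1.04% of all genes were called. At 240 min IVL was the 1 member called in each kind of cell, where 18.5% of all genes were called in shLAD1 cells and 20.2% in scramble cells.

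IVL rose in scramble cells by 0.90 ± 0.16 (SE) at 40 min, with an adjusted p of 0.0473 by limma, and by 1.28 ± 0.16 at 240 min, with an adjusted p of 0.000921. Both numbered scramble libraries were higher than their 0 min counterparts, 1.80-fold and 1.93-fold at 40 min and 2.21-fold and 2.68-fold at 240 min. In shLAD1 cells IVL rose by 0.87 ± 0.16 at 240 min, with an adjusted p of 0.00676 by limma. Its difference of 0.73 ± 0.16 at 40 min had an adjusted p of 0.108 by limma, of 0.0157 with the replicate block, which called 1.96% of all genes, and of 0.0506 with the replicate block within each shRNA, within a range of 0.00351 to 1 over 13 alternatives. The shLAD1 libraries were 1.63-fold and 1.69-fold higher at 40 min, and 2.18-fold and 1.55-fold higher at 240 min, than those of the same number at 0 min. The 40 min call in scramble cells was the weakest of the 3. It was lost with edgeR, with either other scaling and without any 1 of the 4 libraries compared, when the adjusted p ran from 0.265 to 0.394, and held in 6 of 13 alternatives, with an adjusted p of 0.000136 at the lowest. The 240 min call in shLAD1 cells was lost only when the fit was limited to the groups compared (adjusted p of 0.064 by limma, against 2.79e-05 at the lowest of the 13 alternatives).

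The other 4 members were not called at either time in either kind of cell. SPRR3 differed from 0 min by 1.06 ± 0.71 (SE) at 240 min in shLAD1 cells, with an adjusted p of 0.356 by limma. In scramble cells it had 4 reads at 240 min and 1 read at 0 min, so the fitted change there is set by the pseudocount and is not read. In shLAD1 cells it was higher at 240 than at 0 min in both numbered libraries, 1.99-fold and 2.37-fold. SPRR1B differed from 0 min by -0.20 ± 0.92 at 40 min and 0.18 ± 0.92 at 240 min in shLAD1 cells, and by 0.75 ± 0.92 and 0.74 ± 0.92 in scramble cells. With the replicate block within each shRNA, which compares each library with the 0 min library of its own number and shRNA, the 240 min value in scramble cells passed the threshold (adjusted p of 0.0219 by limma, the lowest of 13 alternatives that reached 0.917), where that block called 48.1% of all genes. SPRR1A differed by 0.07 and 0.40 in shLAD1 cells and by 0.09 and 0.21 in scramble cells, each ± 0.70. TGM1 differed by 0.07 and -0.46 in shLAD1 cells and by 0.52 and -0.05 in scramble cells, each ± 0.43. Over the 5 members, the median change at 240 min was 0.40 in shLAD1 cells and 0.74 in scramble cells, beside medians over all genes of -0.01 and -0.02. These medians are the values of SPRR1A and SPRR1B, neither of them called in the fit reported. The scramble median also ranks the SPRR3 change that is not read.

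**Figure D2:**
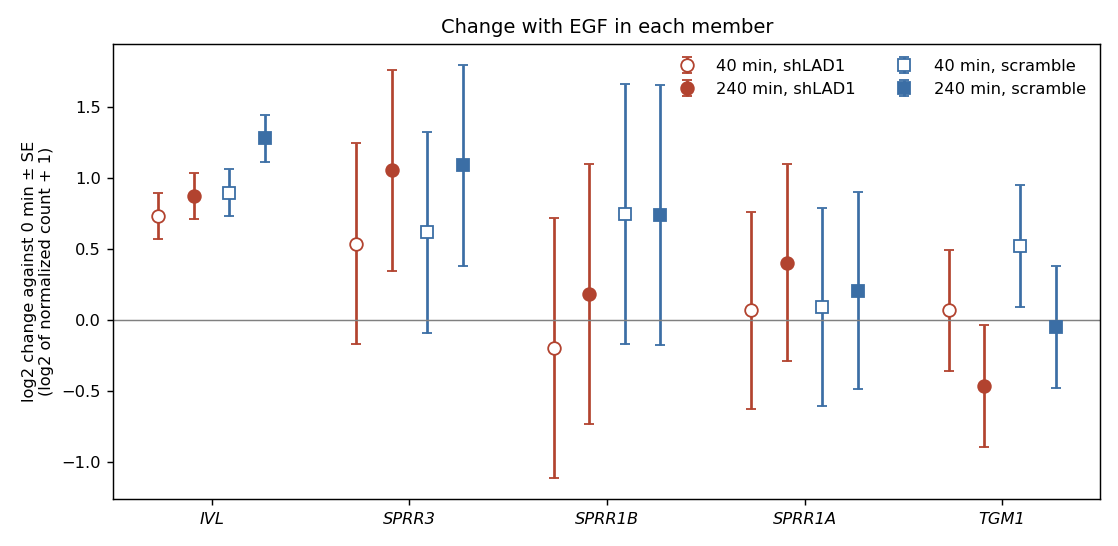
Change of each member with EGF, as the log2 difference from 0 min (vertical axis) ± SE from the fit, with shLAD1 cells (red circles) left of scramble cells (blue squares), open symbols for 40 min and filled symbols for 240 min. IVL stands above 0 by more than 4 SE at each point, from 0.73 to 1.28, and the bars of SPRR1B and SPRR1A are 0.92 and 0.70 wide on each side.

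Whether the EGF change itself differed between shLAD1 and scramble cells was tested as an interaction. None of the 13950 genes was called by limma at 40 min or at 240 min, while 99 and 133 had an unadjusted p under 0.05, and edgeR (104 and 135 at an unadjusted p under 0.05) and DESeq2 (30 and 45) also called none. All these counts lie under a share of 0.05 of the genes, the share that unchanged genes would give. These fits were therefore conservative, and the lack of calls does not show that the EGF changes were equal. The replicate block within each shRNA called 11 genes at 40 min and 27 at 240 min, and no member was among them. With that block in limma, 590 and 1013 genes had an unadjusted p under 0.05. For IVL the change in shLAD1 cells minus that in scramble cells was -0.17 at 40 min, with a 95% interval of -0.69 to 0.36, and -0.41 at 240 min, with an interval of -0.93 to 0.12 (adjusted p of 1 at both times by limma). The intervals of the SPRR1 genes were wider, at 240 min from -2.05 to 2.44 for SPRR1A and -3.55 to 2.42 for SPRR1B. For TGM1 it ran from -1.79 to 0.96 at 240 min. With 2 libraries per group and no term for library number, several-fold differences in the EGF change of the SPRR1 genes were not detectable. Between libraries of the same number, SPRR1B changed at 240 min by 0.37 and -0.004 on the log2 scale in shLAD1 cells. In scramble cells it changed by 0.57 and 0.92.

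Genes whose levels over the 12 libraries were most like those of a member were ranked by Pearson's r of log2(normalized count + 1), among the 11243 genes with a mean of at least 50. The points share their shRNA and number groups, so r mostly follows the difference between shRNAs, and it is given as a description. SPRR1A was most like SPRR1B (r = 0.987), then OLFML3 (0.982), SPRR2A (0.980), the skin protease gene KLK7 (0.974) and the lysosomal protease gene CTSD (0.973). SPRR1B was most like SPRR1A, then ALPP (0.978), a placental alkaline phosphatase gene, KLK7 (0.977), AQP3 (0.963), a glycerol and water channel gene of basal keratinocytes, and COL7A1 (0.961), the gene of anchoring fibril collagen. KLK7 stood at 501 to 1164 normalized counts in shLAD1 cells and at 77.1 to 320 in scramble cells. IVL had other nearest genes, with TOB2 (0.959), JMJD1C (0.958), TINF2 (0.955) and ZNF274 (0.933) among them, and its r was 0.812 with SPRR1A and 0.818 with SPRR1B.

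The neighbours of the members in the epidermal differentiation complex were read in chromosomal order, from S100A10 to S100A1, a region chosen after values were seen. Of its 63 protein-coding genes 61 were in the table, and 27 of those had no read in any library, the late envelope gene LOR and most LCE genes among them. Of the 24 tested genes 20 were not members. Among these, SPRR2A, PGLYRP3, S100A9 and S100A7 stood in all 6 shLAD1 libraries above all 6 scramble libraries, and none stood below, where over all tested genes 3.16% stood above and 3.99% below. PGLYRP3, which encodes a peptidoglycan recognition protein, had 34.8 to 61.1 normalized counts in shLAD1 cells and 0 to 5.18 in scramble cells. It passed the low-count filter through shLAD1 libraries alone, as did SPRR2D and SPRR2E of this region. These genes could be tested only because they were high in shLAD1 cells, so the count above partly reflects the filter. S100A7, the psoriasin gene, had 150 to 308 in shLAD1 cells and 10.0 to 25.9 in scramble cells. The genes at both ends of the region differed little between the shRNAs, with log2 differences of 0.08 for S100A10 and 0.16 for S100A1. FLG, the filaggrin gene, named after its values were seen, had 6.14 to 18.3 in shLAD1 cells and 4.45 to 14.4 in scramble cells, which overlap.

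**Figure D3:**
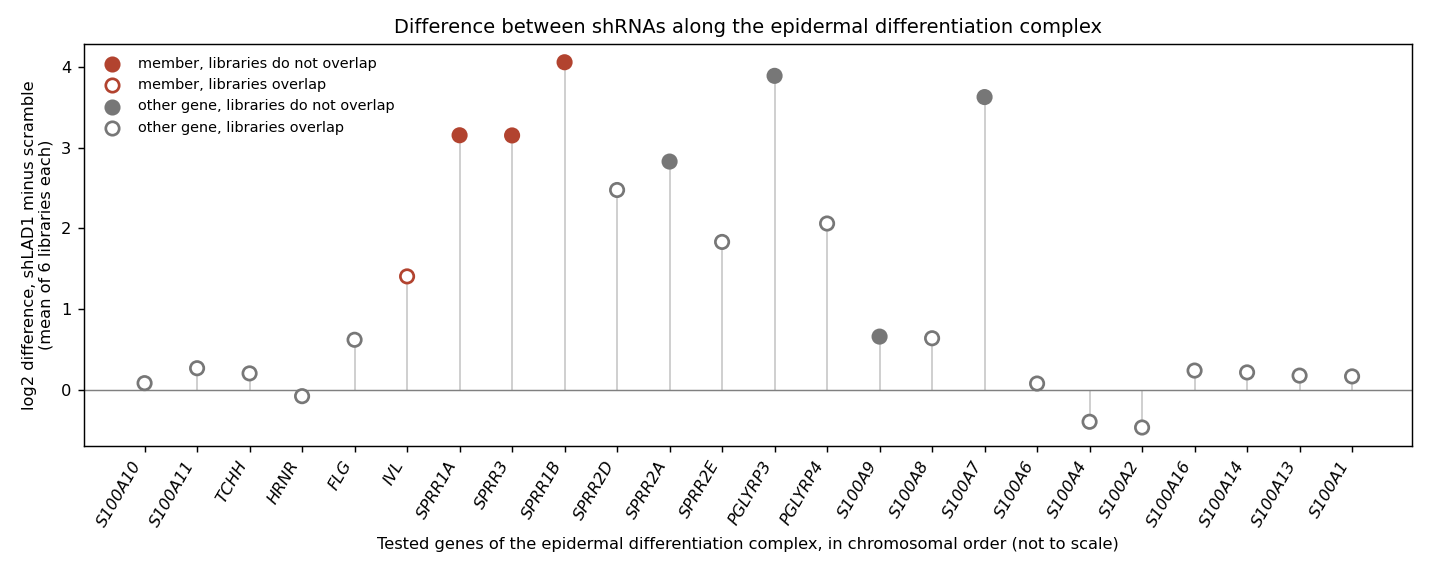
Log2 difference, shLAD1 minus scramble (vertical axis, means of 6 libraries each), for the 24 tested genes of the epidermal differentiation complex in chromosomal order, not to scale. Filled symbols are genes whose 6 shLAD1 libraries do not overlap the 6 scramble libraries, and red marks members. The members SPRR1A, SPRR3 and SPRR1B stand at 3.15, 3.15 and 4.06, followed by SPRR2D at 2.47, whose libraries overlap, and SPRR2A at 2.83.

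Other genes of cornification and keratinocyte differentiation were taken from 8 lists, of which 89 genes were tested. Between shRNAs, averaged over the 3 times, 23 of the 89 were higher and 6 lower in shLAD1 cells by limma's trend test, where 9.25% of all genes were higher and 9.30% lower. Their median log2 difference was 0.18, beside a median of 0.00 over all genes. When each shRNA and number was averaged over its 3 times first, leaving 2 values against 2, limma called 0 of all 13950 genes and therefore none of these (1798 genes had an unadjusted p under 0.05). With the replicate block the list counts below were equal or larger in each direction. These counts come from the contrast that chose the members and are not independent support for it. They also include genes that passed the low-count filter through shLAD1 libraries alone, SPRR2D and SPRR2E among them.

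Of 37 other envelope precursors of the complex, 26 had no read and 6 were tested. Of these, 3 were higher in shLAD1 cells and none lower. SPRR2A, another cross-bridge precursor, had 63.7 to 135 normalized counts in shLAD1 cells and 5.01 to 25.9 in scramble cells, a log2 difference of 2.83 ± 0.34 (SE, adjusted p of 0.00125 by limma). SPRR2D and SPRR2E, at 2.47 ± 0.48 and 1.83 ± 0.39, had means under 50 and are named after their values were seen. In scramble cells they reached at most 3.38 and 2.25 normalized counts, so they passed the low-count filter through shLAD1 libraries alone. Both could thus be tested only because they were high in shLAD1 cells. SPRR2A is 98.1% identical in coding sequence to SPRR2D and 97.7% to SPRR2E, so their separate counts are uncertain.

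Of 17 tested scaffold and accessory genes of the envelope, 2 were higher and 2 lower in shLAD1 cells. A2ML1, a protease inhibitor gene, was higher by 1.09 ± 0.14 and PPL, the periplakin gene, by 0.21 ± 0.05 (SE). PI3, which encodes the elastase inhibitor elafin, a transglutaminase substrate, fell by 2.10 on the log2 scale, with 297 to 523 normalized counts in shLAD1 cells and 1467 to 2261 in scramble cells. DMKN, the dermokine gene, had a difference of -0.70 ± 0.09. PI3, an envelope substrate, thus went the opposite way to the SPRR members. Of 2 tested transglutaminase genes other than TGM1, none was called between shRNAs.

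Of 12 tested S100 genes of the complex, 7 were higher in shLAD1 cells and none lower. S100A7 led with 3.63 ± 0.20 (SE, adjusted p of 4.27e-05 by limma), and S100A11, S100A14 and S100A16 were higher by 0.21 to 0.26. Of 12 tested proteases and inhibitors, 5 were higher and none lower, among them the kallikrein genes, which encode secreted serine proteases, KLK7 at 2.30 ± 0.32, KLK5 at 1.64 ± 0.44 and KLK6 at 1.55 ± 0.32. Between shRNAs, the calls of KLK5 held in 8 of 20 alternatives, of JUNB, PPL and S100A14 in 13, of S100A11 in 15 and of ST14 in 16. Those of the other genes named from the lists for this contrast with a mean of at least 50 held in 19.

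Of 15 tested suprabasal keratins and desmosomal cadherins, 3 were higher and 1 lower in shLAD1 cells. KRT6A, a keratin of activated epidermis, was higher by 1.77 ± 0.35 and DSC2 by 0.35 ± 0.05, while KRT6B had a difference of -0.85 ± 0.14 (SE). Outside the rule for named genes, KRT10, the main suprabasal keratin of epidermis, lay at 528 to 632 normalized counts in shLAD1 cells and 511 to 631 in scramble cells, and KRT1, its partner, had 19 reads in all. Of 19 tested transcription factors 2 were higher and 3 lower. KLF4, a barrier factor, was higher by 0.58 ± 0.06 and JUNB, an AP-1 subunit, by 0.39 ± 0.10, and EHF had a difference of -0.36 ± 0.07. Of 6 tested barrier lipid genes 1, SMPD1, was higher, by 0.50 ± 0.10.

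**Figure D4:**
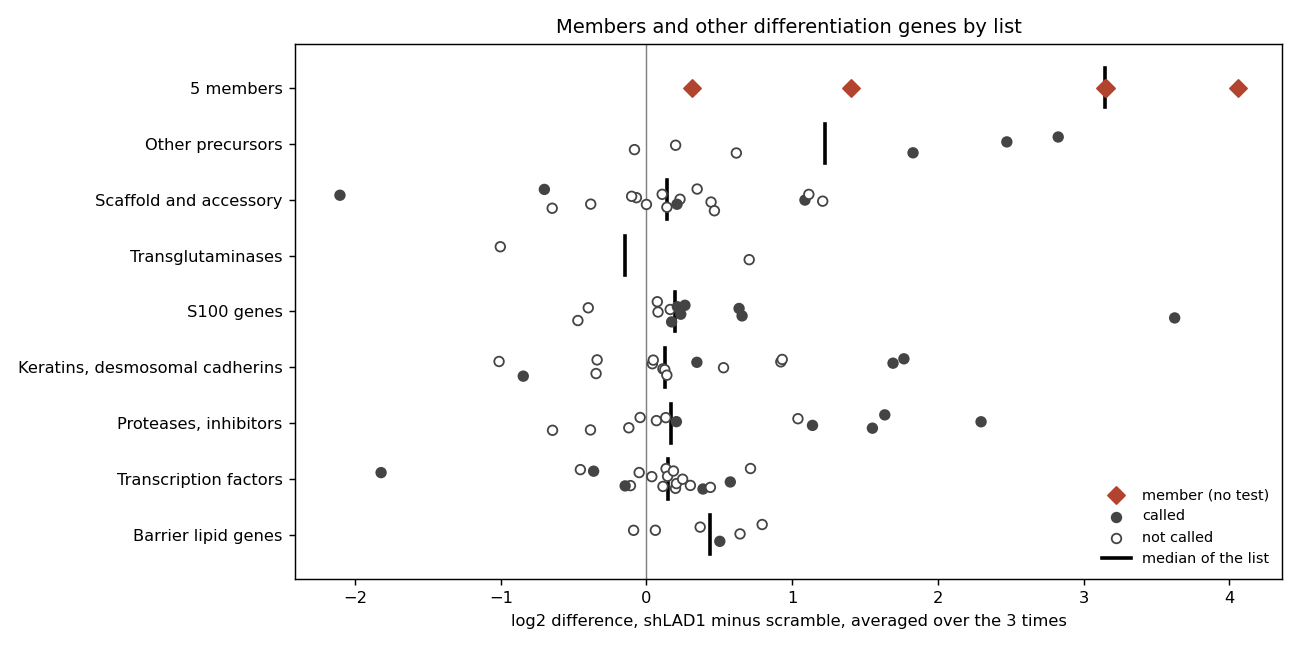
Log2 difference, shLAD1 minus scramble, averaged over the 3 times (horizontal axis), for the 5 members (red diamonds, no test) and for the tested genes of 8 lists (circles, filled where called by limma at an adjusted p under 0.05). Black bars are medians of each row. The member at the far right is SPRR1B at 4.06, the S100 gene farthest right is S100A7 at 3.63, and the scaffold gene farthest left is PI3 at -2.10.

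The same lists were read over EGF time. At 40 min 5 of the 89 tested list genes rose in each kind of cell and none fell, where 1.02% of all genes rose and 0.0215% fell in shLAD1 cells and 0.846% rose and 0.00717% fell in scramble cells. All were transcription factor genes, and in both kinds of cell they were FOSL1, JUNB, ELF3, OVOL1 and ZNF750. The calls of JUNB and FOSL1 held in all 13 alternatives in both kinds of cell. In scramble cells that of ELF3 held in 8 and that of OVOL1 in 9. In shLAD1 cells that of ZNF750 held in 9 and that of OVOL1 in 12. JUNB rose by 3.91 ± 0.17 in shLAD1 cells and by 3.85 ± 0.17 in scramble cells. FOSL1, whose product FRA-1 is an AP-1 subunit, rose by 4.29 ± 0.30 and by 3.43 ± 0.30 in the same order. None of the 6 tested precursors rose or fell at 40 or at 240 min in either kind of cell, apart from 1 that fell at 240 min in shLAD1 cells with the replicate block.

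At 240 min 15 of the 89 list genes rose and 5 fell in shLAD1 cells, and 15 rose and 5 fell in scramble cells, where 10.8% of all genes rose and 7.76% fell in shLAD1 cells, and 11.7% rose and 8.44% fell in scramble cells. FOSL1 was then higher by 5.02 ± 0.30 in shLAD1 cells and by 4.56 ± 0.30 in scramble cells, and KLF4 by 1.13 ± 0.10 and 1.08 ± 0.10. POU2F3 changed by -1.75 ± 0.20 and -1.63 ± 0.20, and EHF by -1.32 ± 0.12 and -1.28 ± 0.12. Among scaffold genes, ANXA1, which encodes annexin A1, rose by 0.74 ± 0.09 in shLAD1 cells and 0.88 ± 0.09 in scramble cells, PPL by 0.60 ± 0.09 and 0.47 ± 0.09, and SCEL, the sciellin gene, by 1.64 ± 0.44 in shLAD1 cells. SCEL was not called in scramble cells, where it ran from 147 to 511 normalized counts over the 3 times, against 141 to 866 in shLAD1 cells. Scaffold genes counted 3 called of 17 in shLAD1 cells and 2 in scramble cells.

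The S100 genes counted 3 and 4 of 12 at 240 min, all higher, with S100A16 at 0.78 ± 0.08 in shLAD1 cells and 0.91 ± 0.08 in scramble cells. SERPINB5, the maspin gene, rose by 1.32 ± 0.21 in shLAD1 cells and 1.55 ± 0.21 in scramble cells, as 1 of 2 protease and inhibitor genes that rose in each. Keratins and cadherins counted 1 of 15 in shLAD1 cells and 3 in scramble cells, where KRT17 rose by 2.25 ± 0.50, a call that held in 9 of 13 alternatives. KRT17 was not called in shLAD1 cells, although it ran from 3811 to 23735 normalized counts there, against 3494 to 18983 in scramble cells. TGM2, the tissue transglutaminase gene, rose by 1.95 ± 0.50 in shLAD1 cells (adjusted p of 0.0266 by limma), and it is named after its value was seen, with a mean under 50. With the replicate block the keratin and cadherin count at 240 min became 6 higher in shLAD1 cells, and 6 higher and 1 lower in scramble cells. Over all genes that block called 17.2% higher and 13.3% lower in shLAD1 cells and 18.0% higher and 14.7% lower in scramble cells, so counts grew over the whole table. The count of S100 genes in scramble cells became 7 and that of proteases and inhibitors 4 in each kind of cell. Whether any list gene's EGF change differed between shLAD1 and scramble cells was tested by the interaction, which called 0 of 89 at each time.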

How the data were processed

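Polyadenylated RNA was sequenced in 12 libraries of HCC70 cells. The submitters' processing notes name STAR, DESeq2 and the build hg19; for the versions, counter, annotation and use of strand, nothing was found (not given in the sources used here). A single table was deposited by the authors, with a signal column of normalized counts per library. Divided by the value of 1 read, 100% of the values in each column came out whole (tolerance 0.001), so the authors' signal is the count divided by a size factor.

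Genes reaching 10 normalized counts in 2 or more libraries, 13950 in number, were fitted by limma-trend (limma 3.58.1, R 4.3.3) on log2(normalized count + 1), with 6 group means and no other term, and adjusted by Benjamini-Hochberg within each comparison. Folds on this scale understate changes of low genes. The script was tested on simulated data. On the recovered reads, edgeR 4.0.16 (quasi-likelihood, TMM) and DESeq2 1.42.0 served as alternatives; edgeR called 145 and 115 genes at 40 min and 2550 and 2784 at 240 min of EGF, in shLAD1 and scramble cells in that order, and 2583 between shRNAs. Other alternatives were a pseudocount of 5, no low-count filter, 2 other scalings, fewer groups in the fit, replicate blocks and leaving out each library.

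The labels' numbers were checked as a pairing: deviations from the group means of libraries with the same number correlated at 0.645 to 0.734 within an shRNA (6 pairs) and at 0.247 to 0.307 between shRNAs (9 pairs), so the numbers pair the libraries. Named genes are the members, LAD1, up to 4 called genes per list with the smallest adjusted p and a mean of at least 50, and the 5 genes most like each member with such a mean; others are marked where named. A gene that this rule names is not reported here. The members and lists were chosen with earlier results of these data known. Promoters are from RefSeq, where 4 of the 5 members matched, and coding sequences from GENCODE v29.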

Additional observations from a re-analysis of the deposited data

How the results depend on the processing

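No member changed the direction of a called value under any alternative run. The number of members called at 40 min in shLAD1 cells was 1 with DESeq2 and with the replicate block, against 0 in the fit reported. In scramble cells it was 0 with edgeR, with total-count scaling, with upper-quartile scaling and without each library in turn, against 1. At 240 min it was 0 in shLAD1 cells when only the groups compared were fitted, against 1, and 2 in scramble cells with the replicate block within each shRNA, against 1. All of these are IVL, except the second call in scramble cells, which is SPRR1B. Fits of only the groups compared called 28 genes at 40 min and 300 at 240 min in shLAD1 cells, against 145 and 2585. The replicate block called 274 genes at 40 min and 4249 at 240 min in shLAD1 cells, 202 and 4557 in scramble cells (against 119 and 2813), and 5034 between shRNAs (against 2588). Within each shRNA that block called 666 and 6450 in shLAD1 cells, 530 and 6715 in scramble cells, and 11 and 27 for the difference in EGF change. Leaving out each library in turn called 75 to 106 genes at 40 min and 1303 to 1888 at 240 min in shLAD1 cells, 55 to 58 and 1354 to 1700 in scramble cells, and 1457 to 2798 between shRNAs. Averaging the 3 times of each shRNA and number called 0 genes between shRNAs. A lone library left in a group was assumed to vary like the other groups. The causes of these shifts were not tested, beyond fewer libraries in the fits that leave some out. The fold of SPRR3 between shRNAs was the 1 member fold that moved by more than its spread, to 1.89 with a pseudocount of 5, 3.93 with edgeR and 4.10 with DESeq2, against 3.15. The depth limits SPRR3, with 8 reads in scramble cells, and TGM1, with 117, most. Of 1418 values of single genes under alternatives, 1279 were counted as the same, 133 lost the call and 3 gained it. A tested value was the same if it stayed on its side of the threshold, so members not called could change direction. For example, SPRR1A at 40 min in shLAD1 cells ran from -0.59 to 0.72. For members between shRNAs, which were not tested, the same meant the same direction and a shift within the spread between libraries. No other call of a member changed with the replicate block.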
